A study of Zea mays with 10 samples.

Results

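The genes described here are 140 low-abundance maize genes whose RNA made up a larger share of captured newly made RNA than of total nuclear RNA in the root tip. They were chosen by their values in these libraries. The level of a gene was taken as CPM, its count per 1000000 counts of the library, and R was taken as log2((mean EU nascent CPM + 0.5)/(mean nuclear CPM + 0.5)). A gene was a member if its mean over the 10 libraries was at least 5 and under 20 CPM, R was at least 1.2, and every EU nascent CPM was above every nuclear CPM. The file held 48174 genes. Counts sufficed to test 21048, and 6953 of the tested genes lay between 5 and 20 CPM. The conditions were met by 144 genes, and 4 with gene names (nac5, HAK21, AUX10 and ARGOS9) were left out by the rule. The 140 members are 2.01% of the tested genes of their abundance range. All 140 passed the filter on low counts.

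Both groups came from seedlings of the maize inbred line B73, 3 days old, kept in water for 1 h and next in 175 uM 5-ethynyl uridine for another 1 h. RNA came from nuclei of the outermost 1 mm of primary and seminal root tips, which holds the meristem. In the EU nascent group of 5 libraries the labelled RNA was captured with biotin and streptavidin, and in the nuclear group of 5 libraries total nuclear RNA from equally labelled tissue was sequenced without the capture. The labels number the replicates of each group 1 to 5 and call them biological.

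5-Ethynyl uridine is a uridine analog that RNA polymerases build into RNA while it is present, and its ethyne group lets that RNA be linked to biotin and pulled down. Total nuclear RNA holds the transcripts being made together with finished RNA that has not left the nucleus and RNA that acts there, such as small nuclear and small nucleolar RNA. A transcript that leaves or is broken down soon after it is made is known to form a smaller part of such a standing pool than of the newly made RNA.

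The libraries held 2391209, 5770915, 2417533, 5686059 and 3997604 counts for EU nascent replicates 1 to 5, and 1323450, 5227257, 1702909, 20397606 and 4271254 for nuclear replicates 1 to 5. Of 19 root tip genes listed as markers, 16 had a count, among them cyclins, PCNA and the root hair gene rth3, and their summed level was 569 to 649 CPM in EU nascent libraries and 525 to 616 CPM in nuclear libraries. The root regulators plt1, plt2 and rtcs had no count in any library. Of 16 leaf and shoot markers, 9 were at 0 in all EU nascent libraries, and the summed level of the list was 652 to 705 CPM in EU nascent libraries and 457 to 509 CPM in nuclear libraries. Nearly all of that sum was Ppdk1, a pyruvate phosphate dikinase, and ME1, a malic enzyme, while the chlorophyll-binding and Rubisco genes were at or near 0.

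The sum over all members was 1964, 2011, 2156, 2065 and 1910 CPM in EU nascent replicates 1 to 5, and 619, 779, 629, 793 and 720 CPM in nuclear replicates 1 to 5. Every EU nascent library was far above every nuclear one, as the rule required of each gene. The means were 2021 ± 94.7 CPM in EU nascent and 708 ± 81.5 CPM in nuclear libraries (SD, n = 5 each), a ratio of 2.85. The other 6813 tested genes of 5 to 20 CPM had a ratio of 1.14 between the same sums. Fewer molecules of a transcript per nucleus and fewer nuclei that hold it cannot be told apart in these bulk libraries.

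Single members lay between 7.38 and 27.8 CPM by their EU nascent mean, with a median of 13.3 CPM, and between 1.69 and 11.4 CPM by their nuclear mean, with a median of 4.55 CPM. Their R ran from 1.2015 to 2.26 with a median of 1.39 and quartiles of 1.28 and 1.53. Most sat near the lower limit of the rule: 75 had an R under 1.4, 58 from 1.4 to under 2, and 7 of at least 2. They also sat low in the abundance range: 88 members (62.9%) averaged under 10 CPM, against 41.7% of the other genes of 5 to 20 CPM. The gap between a member's lowest EU nascent and highest nuclear library had a median of 3.81 CPM and ran from 0.199 to 13.6 CPM.

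**Figure D1:**
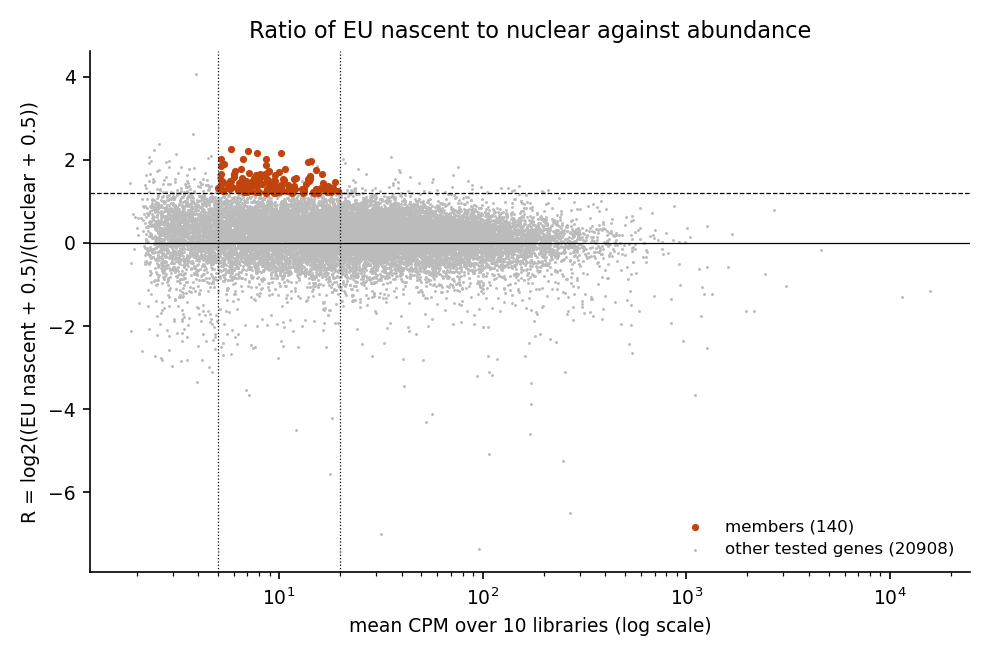
R, the log2 ratio of EU nascent to nuclear CPM, is plotted against the mean CPM over 10 libraries (log axis) for 21048 tested genes, with the 140 members in orange. Dotted lines mark 5 and 20 CPM and the dashed line an R of 1.2; the members fill the part just above the dashed line, up to 2.26.

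The plot of R against abundance shows where the members lie among all tested genes, with grey points above the dashed line inside the same range where the groups overlapped or the rule left a gene out. Genes meeting the same ratio and separation conditions made up 3.08% of tested genes of 1 to 5 CPM (67 of 2175), 2.07% of those of 5 to 20 CPM (144 of 6953), 0.513% of those of 20 to 100 CPM (50 of 9744) and 0.460% of those of at least 100 CPM (10 of 2176). In the opposite direction, with an R of at most -1.2 and groups that did not overlap, the shares were 3.08%, 0.992%, 0.698% and 2.76%. The range of 5 to 20 CPM held 144 genes in the upper direction and 69 in the lower by library totals, and 75 in the upper and 104 in the lower with TMM-scaled library sizes, so which direction held more genes depended on the scaling.

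A fit across all tested genes used edgeR's quasi-likelihood test and Benjamini-Hochberg adjustment. It called 19.8% of genes higher in EU nascent libraries and 21.1% lower. For 20.7% of tested genes every EU nascent CPM was above every nuclear CPM. All 140 members were called higher, but the rule chose on this contrast, so nothing is read from that count. Their fitted log2 fold changes of EU nascent over nuclear ran from 0.90 to 2.81 with a median of 1.24, and standard errors from 0.13 to 0.42. The fit scales libraries by TMM, which centres the median log2 fold change of all tested genes at 0.02, whereas library totals leave the median R of tested genes at 0.18. With CPM from TMM-scaled library sizes, 73 of the 140 members met the rule and no other gene did, and the members' median R was 1.23.

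The member with the highest R was LOC111590392, annotated as a pseudogene. It had 14.6, 9.70, 11.6, 6.68 and 7.25 CPM in EU nascent replicates 1 to 5, and 2.27, 1.53, 1.17, 1.37 and 2.11 CPM in nuclear replicates 1 to 5. Every nuclear library was low, and EU nascent replicate 1 was the highest of all (R 2.26). The means were 9.97 ± 3.26 CPM in EU nascent and 1.69 ± 0.474 CPM in nuclear libraries (SD, n = 5 each). LOC111590674, a small nuclear RNA gene of the class that forms the spliceosome's RNA core, came next. Its level was 8.36, 10.6, 21.1, 9.15 and 10.3 CPM in EU nascent replicates 1 to 5, and 2.27, 1.34, 4.70, 0.784 and 1.87 CPM in nuclear replicates 1 to 5. Replicate 3 was the highest library in both groups, and the groups did not overlap (R 2.20). Without nuclear replicate 4, the deepest library, its fitted log2 fold change was 2.23, against 2.81 with all libraries.

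Of the protein-coding members, LOC118473089 had the highest R, 2.17. Its EU nascent libraries held 13.4, 12.8, 14.9, 13.4 and 10.8 CPM, and its nuclear libraries 2.27, 2.68, 1.17, 3.43 and 3.04 CPM. Its EU nascent libraries were close together, with an SD of 1.49 CPM around a mean of 13.0 CPM. LOC103626961 followed with 17.1 ± 4.38 CPM in EU nascent and 3.43 ± 1.08 CPM in nuclear libraries (SD, n = 5 each, R 2.16). The protein-coding LOC100286055 averaged 11.02 ± 2.90 CPM in EU nascent and 2.32 ± 1.49 CPM in nuclear libraries (SD, n = 5 each, R 2.03). LOC103632243 averaged 23.2 ± 4.60 CPM in EU nascent and 5.55 ± 1.39 CPM in nuclear libraries (SD, n = 5 each, R 1.97). The gene table gives none of these 4 a product, so no role is stated. LOC103630064, a pseudogene with fractional counts, which may come from reads shared among genes, had 8.63 ± 2.52 CPM in EU nascent and 1.76 ± 0.970 CPM in nuclear libraries (SD, n = 5 each, R 2.02).

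**Figure D2:**
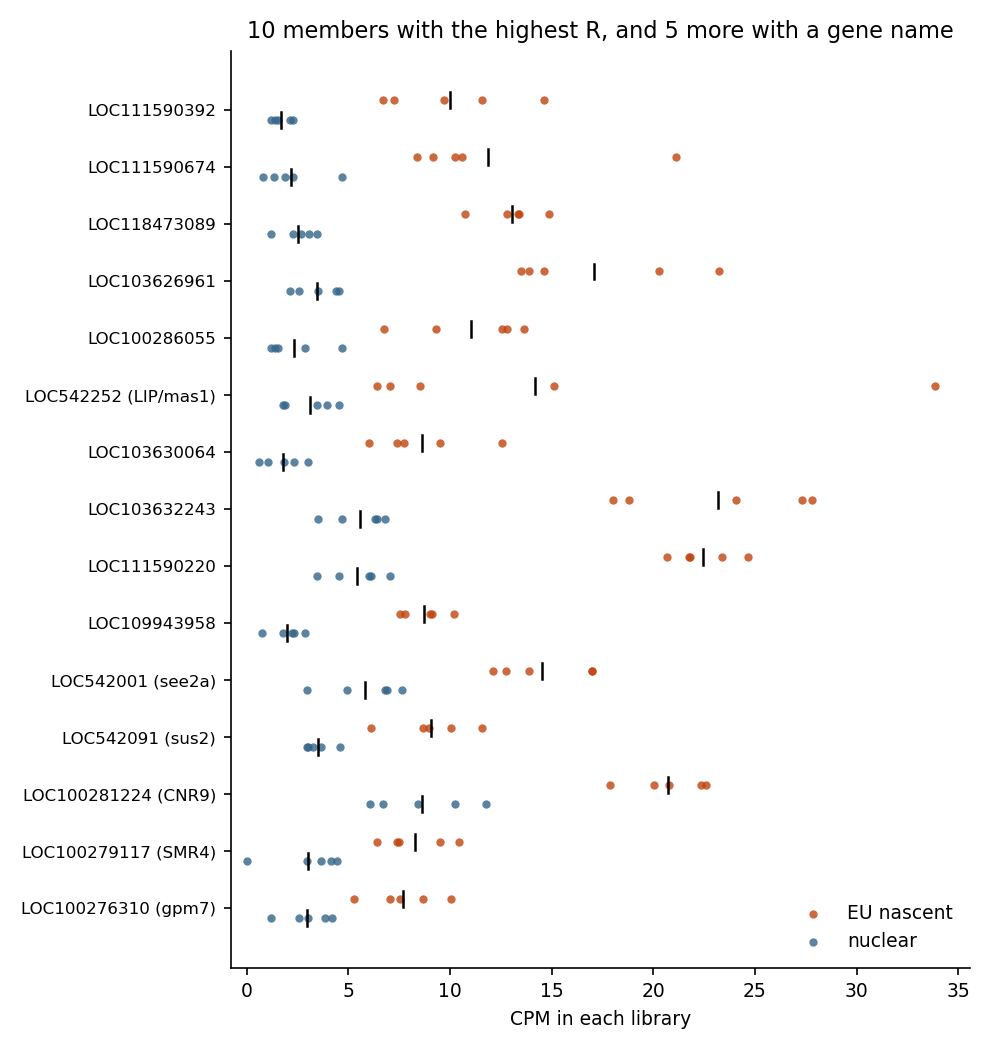
CPM in each of the 10 libraries for the 10 members with the highest R and 5 more that carry a gene name, EU nascent (orange) above nuclear (blue) in each row, with bars at the group means. The groups are apart in every row; EU nascent replicate 1 of LIP/mas1 (33.9 CPM) and replicate 3 of LOC111590674 (21.1 CPM) lie far right of their own groups.

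The plot of the single libraries shows that most of these members had a narrow nuclear group and a wider EU nascent group on the linear scale. None of the 140 members has a symbol other than a locus number, but the 4 genes left out by the rule had gene names. A synonym that names a gene was found for 6 members, of which LOC542252 was on a list of pathway genes and among the 10 highest, and the other 5 were chosen after their values were seen.

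Among enzymes, LOC542252 (LIP, also mas1) encodes malate synthase, which joins glyoxylate and acetyl-CoA in the glyoxylate cycle by which germinating seeds turn stored fat into sugar. Its level was 33.9, 6.41, 7.03, 15.1 and 8.51 CPM in EU nascent replicates 1 to 5, and 4.53, 3.44, 1.76, 3.92 and 1.87 CPM in nuclear replicates 1 to 5. EU nascent replicate 1 stood far above the other libraries, nuclear replicate 1 was also the highest of its group, and the groups did not overlap. The R was 2.03 with all libraries, and the fitted log2 fold change was 1.84 ± 0.42 (SE), or 1.36 without EU nascent replicate 1. The other glyoxylate cycle gene listed, icl1, which encodes isocitrate lyase, had too few counts to be tested and averaged 0.201 CPM in EU nascent and 0.0762 CPM in nuclear libraries.

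LOC542091 (sus2) is a sucrose synthase gene, whose product splits sucrose into UDP-glucose and fructose. It had 10.0, 8.66, 11.6, 8.97 and 6.13 CPM in EU nascent replicates 1 to 5, and 3.02, 3.63, 2.94, 4.58 and 3.28 CPM in nuclear replicates 1 to 5. The groups were apart, with EU nascent replicate 5 the closest to the nuclear libraries (R 1.26), and some of its counts were fractional, so its level is uncertain where reads were shared with related genes. The family's other genes, looked at because sus2 is a member, were no members. The gene sus1 had 3433 ± 493 CPM in EU nascent and 1992 ± 283 CPM in nuclear libraries (SD, n = 5 each, R 0.78). It was called higher by edgeR with Benjamini-Hochberg adjustment (log2 fold change 0.61 ± 0.10, adjusted p = 0.000119). The gene sh1, known from the shrunken kernels of its mutant, had 1137 ± 188 CPM in EU nascent and 611 ± 98.8 CPM in nuclear libraries (SD, n = 5 each). It was also called higher by edgeR with Benjamini-Hochberg adjustment (log2 fold change 0.72 ± 0.12, adjusted p = 9.05e-05). Some counts of sh1 were fractional too. Of all tested genes 19.8% were called higher.

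LOC542001 (see2a) encodes a legumain-type cysteine protease, an enzyme of the vacuole that cuts proteins after asparagine. Its EU nascent replicates 1 to 5 held 12.1, 16.98, 16.96, 13.9 and 12.8 CPM, and its nuclear replicates 6.80, 6.89, 2.94, 7.65 and 4.92 CPM. Nuclear replicate 3 was the lowest library, and the groups were apart (R 1.25, fitted log2 fold change 1.01 ± 0.19, SE). The related gene see2b, looked at because see2a is a member, had some fractional counts. It averaged 4.35 ± 1.88 CPM in EU nascent and 1.72 ± 0.7098 CPM in nuclear libraries (SD, n = 5 each). Its groups overlapped and it lay under 5 CPM, so it was no member. The test of edgeR with Benjamini-Hochberg adjustment called it higher (log2 fold change 1.21 ± 0.33, adjusted p = 0.00637), as it did 19.8% of all tested genes.

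Among genes with a named part in growth control, LOC100281224 (CNR9) belongs to the cell number regulators, a family of which maize CNR1 is known to limit organ size through cell number. Its EU nascent replicates 1 to 5 held 22.6, 17.8, 22.3, 20.0 and 20.8 CPM, and its nuclear replicates 6.04, 6.70, 11.7, 10.2 and 8.43 CPM. The nuclear libraries spread more widely in proportion, and the groups were apart (R 1.22, fitted log2 fold change 1.03 ± 0.16, SE). The table held 12 genes of this family, which was looked at because CNR9 is a member. Of the 7 tested, 5 including CNR9 were called higher and 0 lower, where 19.8% of all tested genes were called higher and 21.1% lower. CNR9 was chosen on this contrast, so nothing is read from its own call. CNR5, CNR6 and CNR13 were called with fitted log2 fold changes of 0.57 ± 0.10, 0.64 ± 0.10 and 0.53 ± 0.10 (SE), and CNR2 with 1.07 ± 0.30, its groups overlapping. The fitted log2 fold change of CNR1 was 0.22 ± 0.20 and that of CNR8 (LOC100194102) 0.21 ± 0.12, and neither passed edgeR's test with Benjamini-Hochberg adjustment (adjusted p = 0.412 for CNR1 and 0.156 for CNR8). With the replicate number as a block or with library totals alone, CNR8 was also called higher, which made 6 of 7 with CNR9 included. These settings called more genes higher in general. Of all 21048 tested genes, 5099 were called higher with the block and 7386 with library totals alone, against 4166 in the main fit.

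LOC100279117 (SMR4) is named after the SIAMESE-related proteins, which in Arabidopsis inhibit cyclin-dependent kinases. Its EU nascent replicates 1 to 5 held 10.5, 6.41, 9.51, 7.39 and 7.50 CPM, and its nuclear replicates 0, 3.63, 2.94, 4.12 and 4.45 CPM. Nuclear replicate 1, the shallowest library, had no read of it, where 3 counts would be 2.27 CPM. The groups were apart (R 1.31). LOC100276310 (gpm7), to which no role is given here, had 7.53, 8.66, 7.03, 10.0 and 5.25 CPM in EU nascent replicates 1 to 5, and 3.02, 4.21, 1.17, 3.82 and 2.58 CPM in nuclear replicates 1 to 5. Its groups came within about 1 CPM of each other (R 1.24).

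No member was at 0 in an EU nascent library, and 3 were at 0 in nuclear replicate 1. Besides SMR4 these were LOC100280781 (R 1.78) and LOC107648850 (R 1.65), both protein-coding and named here because of that 0. LOC100280781 had 6.69, 11.6, 14.9, 11.8 and 6.75 CPM in EU nascent replicates 1 to 5, and 0, 4.21, 1.76, 4.24 and 3.04 CPM in nuclear replicates 1 to 5. Its groups were apart with or without the library at 0.

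Just inside the limit on R lay LOC109946003 (1.2015), LOC109942821, LOC111556098, LOC100279719 and LOC100282371 (1.21). Just outside lay LOC118476103 (1.198), LOC109944016, LOC100193446, LOC100277080 and LOC100273303 (1.19). LOC109946003 averaged 18.5 CPM in EU nascent and 7.76 CPM in nuclear libraries, and LOC118476103 averaged 15.2 CPM in EU nascent and 6.35 CPM in nuclear libraries, so that genes on either side of the limit differed little. The members nearest to the limits on abundance were LOC100194271, at a mean of 5.01 CPM, and LOC100278059, at 19.4 CPM. LOC100278059 had 27.5 ± 4.31 CPM in EU nascent and 11.4 ± 2.69 CPM in nuclear libraries (SD, n = 5 each), the highest nuclear mean of any member.

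The conditions on level, ratio and separation used no annotation, though the 4 genes left out by the rule all had gene names. The gene classes of the members are given beside those of their abundance range. Long non-coding RNA genes, transcripts with no long reading frame, were 23 of the 140 members (16.4%), against 276 of the 6813 other genes of 5 to 20 CPM (4.05%). Protein-coding genes were 102 members (72.9%), against 90.4% of the others. Pseudogenes were 5 members (3.57%), against 1.16% of the others, and pseudogenes annotated as transcribed were another 5 (3.57%), against 2.20%. Small nucleolar RNA genes, whose products guide the modification of other RNAs, were 3 members (2.14%), against 1.44%, and small nuclear RNA genes were 2 members (1.43%), against 0.220%.

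**Figure D3:**
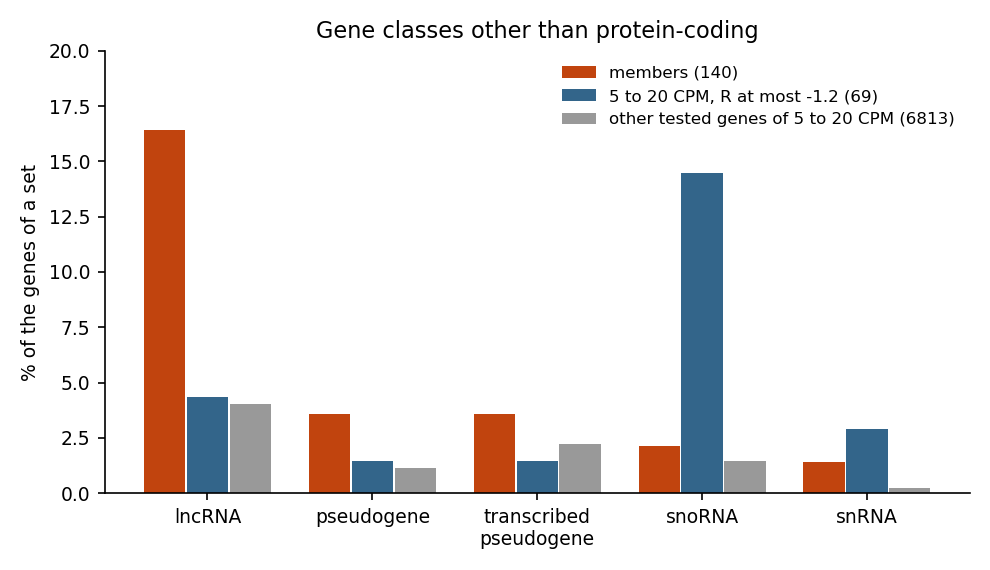
The share of genes annotated to each class other than protein-coding, in % of the set, for the 140 members, for the 69 genes of 5 to 20 CPM with an R of at most -1.2 and groups that did not overlap, and for all 6813 other tested genes of 5 to 20 CPM, which include those 69. Long non-coding RNA genes are 16.4%, 4.35% and 4.05% of the 3 sets, and small nucleolar RNA genes 2.14%, 14.5% and 1.44%.

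The bars of the gene classes show that the members had the highest long non-coding share of the 3 sets, and the 69 genes of the opposite direction the highest small nucleolar share. Since low genes are more often non-coding, the share was also read within narrower ranges. It was 18.2% of the 88 members of 5 to 10 CPM, against 5.28% of the other genes of that range, and 13.5% of the 52 members of 10 to 20 CPM, against 3.17%. Among genes of at least 20 CPM that met the same conditions on ratio and separation, 2 of 60 (3.33%) were long non-coding. Among members with neither fractional counts nor an overlapping gene the share was 14.2%, against 3.16% of such other genes, and among the 73 members found with TMM-scaled library sizes it was 19.2%.

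Read the other way, 7.69% of the 299 tested long non-coding genes of 5 to 20 CPM were members, against 1.63% of the 6258 protein-coding genes. The median R of all long non-coding genes in that range was 0.37, against 0.24 for protein-coding genes. By edgeR's test with Benjamini-Hochberg adjustment, 31.8% of these long non-coding genes were called higher and 12.7% lower, and of the protein-coding genes 18.7% were called higher and 14.1% lower. With library totals alone the shares called higher were 44.1% and 32.4%. Pseudogenes and transcribed pseudogenes of the range were close to the long non-coding genes, with a median R of 0.39 in each class. By the same test with TMM scaling, 33.3% of the 84 pseudogenes were called higher and 8.33% lower. Of the 155 transcribed pseudogenes 32.3% were called higher and 9.03% lower. Small nuclear RNA genes of the range had a median R of -0.97, with 3 of 17 called higher, 10 lower and 2 of them members. These shares describe annotated sets of genes, which are not independent replicates, and no test of them was made.

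The 23 long non-coding members had a median R of 1.49, against 1.38 for the 102 protein-coding members. Their EU nascent means ran from 8.69 to 23.8 CPM with a median of 13.1 CPM, and their nuclear means from 1.99 to 8.94 CPM with a median of 4.28 CPM. The highest R among them was that of LOC109943958, 1.89. It had 7.53, 7.80, 9.10, 10.2 and 9.01 CPM in EU nascent replicates 1 to 5, and 0.756, 2.87, 1.76, 2.21 and 2.34 CPM in nuclear replicates 1 to 5. The EU nascent libraries were close together and all well above the nuclear ones. The long non-coding member with the highest EU nascent mean, LOC103632818, chosen after its values were seen, averaged 23.8 ± 2.54 CPM in EU nascent and 6.65 ± 3.44 CPM in nuclear libraries (SD, n = 5 each, R 1.77), with nuclear replicate 1 at 0.756 CPM. What these transcripts do is not stated in the gene table.

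An annotated overlap was about as frequent among members as in their abundance range: 14 members (10%) shared part of their span with another gene, against 12.4% of the other genes of 5 to 20 CPM. Among the 69 genes of the opposite direction the share was 43.5%. Fractional counts were found for 25 members (17.9%), against 21.3% of the other genes and 37.7% of those 69. A curated RefSeq transcript was listed for 83 members (59.3%), against 71.6% of the other genes, and a single listed transcript for 69.3%, against 66.0%. The strand setting of the counting is not given in the sources used here, so reads of overlapping genes cannot be told apart and their values are uncertain.

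For 8 of the 14 members with an overlap, the whole span lay inside a protein-coding gene, and these and the genes that hold them are named here for that position. The surrounding genes had an R from -0.47 to 1.13. All lay below the member inside, as the choice of members makes likely, since 98.5% of all tested genes had an R under 1.2, and nothing is read from that order. The small nucleolar RNA gene LOC111590220 had 24.7, 23.4, 20.7, 21.8 and 21.8 CPM in EU nascent replicates 1 to 5, and 4.53, 3.44, 7.05, 6.03 and 6.09 CPM in nuclear replicates 1 to 5. Its EU nascent libraries all exceeded 20 CPM and its nuclear libraries stayed near or under 7 CPM (R 1.95). The gene around it, LOC100282010, averaged 60.5 ± 7.69 CPM in EU nascent and 27.4 ± 2.84 CPM in nuclear libraries (SD, n = 5 each, R 1.13). It was called higher by edgeR with Benjamini-Hochberg adjustment (log2 fold change 0.94 ± 0.10, adjusted p = 1.35e-06).

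The opposite case was LOC109943548, a protein-coding member inside LOC542181. The member averaged 18.6 ± 5.68 CPM in EU nascent and 7.46 ± 2.54 CPM in nuclear libraries (SD, n = 5 each, R 1.27). The surrounding gene averaged 128 ± 4.69 CPM in EU nascent and 178 ± 11.9 CPM in nuclear libraries (SD, n = 5 each, R -0.47), and edgeR with Benjamini-Hochberg adjustment called it lower (log2 fold change -0.64 ± 0.07, adjusted p = 2.39e-06). The other surrounding genes had an R of -0.10 to 0.65, and of all 8, 3 were called higher, 1 lower and 4 in neither direction, where 19.8% of all tested genes were called higher and 21.1% lower. With library totals alone 5 were called higher, where 7386 of all 21048 tested genes were, against 4166 in the main fit. In a fit blocked on the replicate number 2 were called lower, LOC100191485 being added (adjusted p = 0.0358, edgeR with Benjamini-Hochberg adjustment). That fit called 5347 of all 21048 tested genes lower, against 4436 in the main fit.

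**Figure D4:**
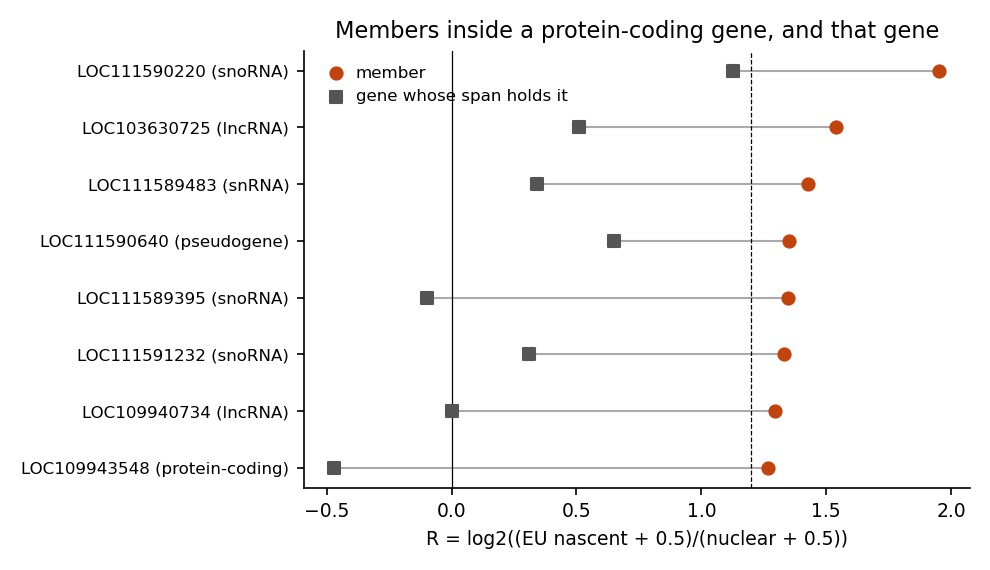
R of the 8 members that lie inside a protein-coding gene (orange circles) and of the gene around each (dark squares), joined by a line, with the member's class in brackets. The solid line marks 0 and the dashed line 1.2; the circles lie right of the dashed line because the members were chosen so, and the squares range from -0.47 to 1.13.

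The plot of nested genes pairs each of these members with the gene around it. Neighbours along the chromosomes were read at any abundance. Of all 21048 tested genes 140 were members, and of the 141 tested genes next to a member 4 were members (2.84%). They formed 2 pairs, picked out after their values were seen: LOC118473089 with the pseudogene LOC109942006 (R 2.17 and 1.73), and the long non-coding genes LOC110485082 and LOC110485083 (R 1.89 and 1.699), both with fractional counts. The second pair may share reads, so its values are uncertain. These 141 neighbours had a median R of 0.14, against 0.18 for the 7296 next to other genes of the same abundance, and 7 (4.96%) against 1.21% had an R of at least 1.2. Of those 7, 4 were the members of these pairs, chosen for their R, so nothing is read from the 4.96%. Without members, an R of at least 1.2 was found for 3 of the 141 neighbours and 52 of the 7296.

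The 16 families of transcriptional regulators listed, among them AP2/ERF, NAC, WRKY, MYB and bHLH, held 408 genes, of which 236 were tested. Of these, 51 were called higher (21.6%) and 52 lower (22.0%), close to the 19.8% and 21.1% of all tested genes. Their median fitted log2 fold change was 0.02, as over all tested genes. Of the 79 tested regulators of 5 to 20 CPM, 2 met the conditions (2.53%), close to the 2.07% of all tested genes of that range. These were nac5 and AUX10, which the rule left out, so 0 regulators were members. All 28 lists, which add hormone, transport, wall, kinase and metabolic genes, held 651 genes with 387 tested. Among the 387, 97 were called higher and 79 lower, where 19.8% of all tested genes were called higher and 21.1% lower. LIP was the 1 member among their 119 tested genes of 5 to 20 CPM. Another 4 of the 119 met the conditions and were left out by the rule, where 2.07% of all tested genes of that range met them. Lists were matched on symbols and synonyms, which most members lack, so an unnamed member may belong to a family without being counted.

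Members were next read in each same-numbered pair of libraries. The median log2 ratio over the members was 1.58, 1.29, 1.73, 1.31 and 1.29 in numbers 1 to 5. Numbers 1 and 3, which hold the shallowest nuclear libraries, gave the highest medians. The other genes of 5 to 20 CPM had medians of 0.22, 0.22, 0.22, 0.21 and 0.22. All 5 ratios were above 0 for every member, as the rule required, and at least 1 for 57 of them.

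Because these ratios chose the members, the rule was also applied to 4 numbers at a time, and the genes it chose were read in the number left out. It chose 156, 163, 126, 161 and 171 genes without numbers 1 to 5, of which 108, 127, 103, 130 and 135 were among the 140 members. In the number left out, their median log2 ratio was 1.296, 1.14, 1.54, 1.15 and 1.15, against a median R of 1.36, 1.42, 1.37, 1.4003 and 1.37 in the libraries that chose them. The ratio read in libraries not used for the choice was lower in 4 of 5 numbers, and higher in number 3. A ratio above 0 in the number left out was found for 94.9%, 100%, 99.2%, 99.4% and 99.4% of the genes. By R over all libraries, 4707 of the 6813 other tested genes of 5 to 20 CPM were also above 0. A ratio of at least 1.2 in the number left out was found for 54.5%, 42.3%, 68.3%, 47.2% and 44.4% of the chosen genes. By R over all libraries, 98.5% of all tested genes lay under 1.2. The share of other genes at 1.2 or above in single pairs is not given here. Under every such choice 82 of the 140 members were found again.

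**Figure D5:**
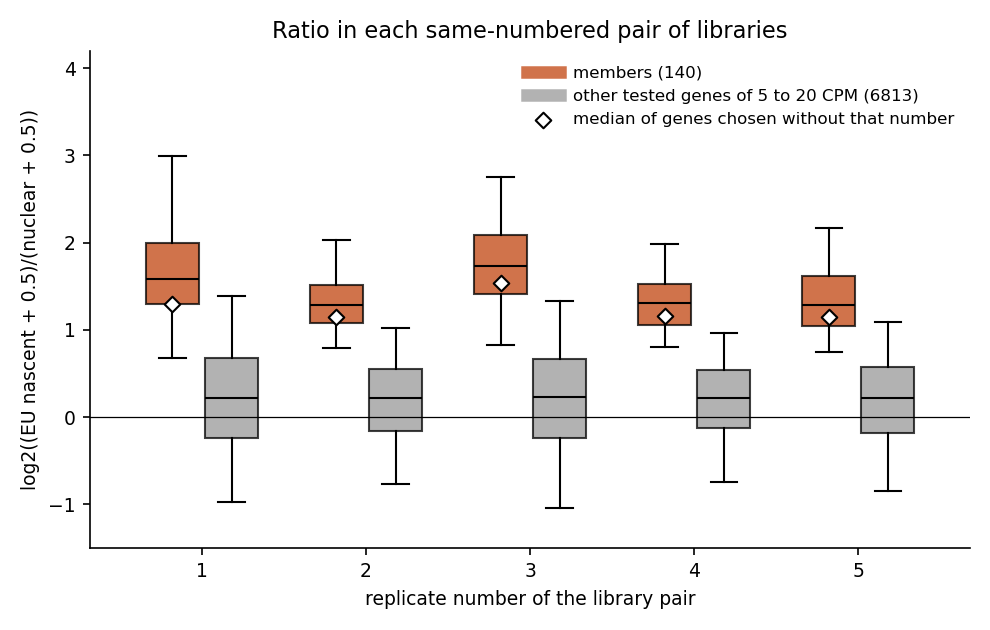
Log2 ratio of EU nascent to nuclear CPM, each + 0.5, in each same-numbered pair of libraries, for the 140 members (orange) and the 6813 other tested genes of 5 to 20 CPM (grey). Boxes span the quartiles with the median as a line, whiskers run from the 5th to the 95th percentile, and diamonds give the median in that pair of the genes chosen without it, 1.14 to 1.54.

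The boxes by replicate number set the members well above the other genes in all 5 pairs, and the diamonds lie below the member medians. Depth differed among these libraries. The median count of a member was 30, 75, 35, 74 and 47.5 in EU nascent replicates 1 to 5, and 5, 26, 6, 102 and 20 in nuclear replicates 1 to 5. Nuclear replicates 1 and 3 were the lowest nuclear library for 50 and 52 members (35.7% and 37.1%), against 29.9% and 26.7% of the other genes. EU nascent replicate 3 was the highest EU nascent library for 48 members (34.3%), against 26.1% of the other genes. The part of depth in these ratios was not tested.

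The spread between replicates also differed between the groups. The median coefficient of variation of a member, its SD over its mean, was 19.7% in EU nascent and 30.8% in nuclear libraries. For the other genes of 5 to 20 CPM it was 20.0% in EU nascent and 20.4% in nuclear libraries. Counting error alone would give members a median of 14.7% in EU nascent and 28.3% in nuclear libraries, at their depths and mean levels. It would give the other genes of 5 to 20 CPM 15.6% in EU nascent and 18.8% in nuclear libraries. The levels of single members in nuclear replicates 1 and 3 rest on few reads.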

How the data were processed

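Per the labels' protocols, nuclear RNA was freed of DNA and ribosomal RNA before directional library preparation with unique molecular identifiers. Trimmomatic 0.36 and 0.39, STAR 2.7.10b, HTSeq, UMI-tools, SAMtools and deepTools are named in the submitters' processing notes, without role or order. The genome build, annotation release and strand setting are not given in the sources used here. The unit of the deposited values is not stated: judged by the values, the authors deposited expected counts per gene, some of them fractional and none normalized. The table of all libraries and the single files held the same values (0 differences).

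Levels, R and the members were computed from the unrounded counts divided by column totals. The test was edgeR's quasi-likelihood F test (version 4.0.16, R 4.3.3) on rounded counts of 21048 genes kept by filterByExpr, scaled by TMM, with Benjamini-Hochberg adjustment and a threshold of 0.05. An SE was obtained from the fitted log2 fold change and the root of its F statistic. The fit was checked on simulated counts. The remaining steps were run in Python 3.11.15 (pandas 2.3.3, numpy 2.4.6, scipy 1.17.1). A RefSeq gene table (Zm-B73-REFERENCE-NAM-5.0) held 99.9% of the identifiers and was used only for names, classes, overlaps and neighbours. No coordinates are given, since the build of the files is unknown.

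The members and lists were chosen with earlier results of these data known. Members named by rule were the 10 with the highest R, the 5 just inside and 5 genes just outside the limit on R, those nearest to 5 and 20 CPM, and list members. Genes named outside this rule are marked. Replicate numbers from the labels pair the libraries: the deviations of same-numbered libraries correlated across genes at 0.159 to 0.222, and those of other numbers at up to 0.115. The 3-count floor and the coefficients of variation from counting cover counting error only. DESeq2 1.42.0, other scalings, filters and pseudocounts, the block and leaving out libraries were alternatives, and thinned libraries, genes without an overlap and the opposite direction with TMM were added after the data were seen. Gene and protein sequences, promoter motifs and gene lengths were not analysed here.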

Additional observations from a re-analysis of the deposited data

Results flagged for a closer look

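In EU nascent replicate 3 the small nuclear RNA gene LOC111590674 stood at 21.1 CPM, apart from the other EU nascent replicates, which lay between 8.36 and 10.6 CPM. The gap to the nearest library, divided by the range of the group, was above Dixon's 95% critical value of 0.71 for 5 samples. Over all 140 members, 17 of 280 groups (6.07%) held such a library, where chance gives about 1 in 20.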

How the results depend on the processing

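The number of members moved with the limits of the rule and the scaling: 73 with CPM from TMM-scaled library sizes, 285 with R of at least 1.0 and 44 with R of at least 1.5. With TMM-scaled library sizes the genes of the opposite direction numbered 104 in place of 69. It was 167 and 107 with pseudocounts of 0.1 and 1 CPM, 156 where the groups could overlap, 115 without genes with fractional counts and 126 without genes overlapping another. Leaving out single libraries or replicate numbers gave 126 to 171 members and a median ratio of the 140 members of 1.33 to 1.44. After thinning to the shallowest library 138 genes met the rule, 83 of them among the 140. Over all genes, edgeR called 8602 and DESeq2 8273, and leaving out single libraries gave 7304 to 9269. Thinning, which leaves fewer genes and counts, gave 5290 calls, with 87 of the 89 members still tested called higher. Leaving out single libraries called 140 to 140 members. With library totals alone 72.8% of 10151 calls were higher, against 48.4% with TMM, and the median log2 fold change was 0.19.

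With the replicate number as a block, edgeR called 10446 genes, and the same 140 members. The block changed the call of 2 genes named beside the members, CNR8 and LOC100191485, as given with them. The 408 log2 fold changes of named members under alternatives all kept their direction and their side of the threshold. The members were chosen on this contrast, so nothing is read from that count. Alternatives in which a named member was not tested are not in it. Planned comparisons of promoter motifs, promoter base composition and protein length were not run.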
